A study of Mus musculus with 4 samples.

Results

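Extracellular vesicles (EVs) released by 4T1 cells were compared with the 4T1 cells themselves, 1 small-RNA library each, out of 4 libraries in the series. 4T1 is a mouse mammary carcinoma line known for spreading to distant organs; the other libraries came from 4TO7, a related line. Cultures received DMEM and 10% serum cleared of EVs, and the labels give no other treatment. Differential centrifugation with 2 ultracentrifugation rounds gave the vesicles. The RNA was depleted of ribosomal RNA and cut from a gel at miRNA size. The libraries held 9729966 reads in EVs and 16220214 in cells, of which 7625978 and 13505699 aligned to the genome.

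Members were mature miRNAs with 50 or more sense reads of at least 18 nt in either library. This gave 208 of the 588 mature miRNAs with any such read; 75 reached 50 reads in EVs and 206 in cells. The miRNA reads numbered 57962 in EVs and 603186 in cells, and these totals are the denominators of RPM, reads per 1000000 miRNA reads. A read that matched several near-identical miRNAs was listed under each, so members of 1 family share reads. With 1 library per group there is no replicate error and no test. A miRNA is called higher or lower where the exact 95% interval of its EV/cell ratio lies wholly beyond 2-fold. Counting error is all that these intervals, and the floors for 0 reads, cover. Such a call compares these libraries, not the conditions. A lower level can be fewer vesicles with a miRNA or fewer copies in each, and these cannot be told apart. Epithelial markers were read in both libraries: miR-200a-3p, miR-200b-3p, miR-200c-3p, miR-141-3p and miR-429-3p had between 5 and 162 reads in EVs and between 215 and 1202 in cells, while miR-205-5p had 0 in both.

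A miRNA is cut from a hairpin precursor, whose arms give the 5p and the 3p product. Usually 1 arm is kept in an Argonaute protein and the other, the passenger strand, is degraded. Bases 2 to 8, the seed, pair with target messages, so miRNAs with the same seed form a family. Vesicles carry a part of the small RNA of their cell, together with fragments of longer RNAs.

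The mature sequences of the miRNAs on which the comparison turns are given first, 5′ to 3′, with the seed in capitals, from RefSeq (GRCm38.p6). Those called higher in EVs are shown before let-7a-5p, which was called neither, and those called lower.

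miR-125b-5p: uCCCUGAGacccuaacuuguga
miR-125a-5p: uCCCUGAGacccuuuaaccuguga
miR-183-5p: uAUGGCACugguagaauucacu
miR-24-3p: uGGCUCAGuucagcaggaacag
miR-22-3p: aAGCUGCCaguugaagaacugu
let-7b-5p: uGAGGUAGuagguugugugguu
let-7a-5p: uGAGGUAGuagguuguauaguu
miR-21a-5p: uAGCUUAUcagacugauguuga
miR-100-5p: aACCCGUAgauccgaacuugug
miR-99a-5p: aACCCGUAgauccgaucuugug
miR-27a-3p: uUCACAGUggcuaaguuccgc
miR-103-3p: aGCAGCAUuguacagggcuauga
miR-20a-5p: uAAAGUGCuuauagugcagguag
miR-17-5p: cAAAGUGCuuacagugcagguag
miR-93-5p: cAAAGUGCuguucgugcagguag
miR-106b-5p: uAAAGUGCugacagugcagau
miR-18a-5p: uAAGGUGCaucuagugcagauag
miR-31-3p: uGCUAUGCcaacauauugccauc

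The EV and the cell library held different amounts of many miRNAs. Of the 208 miRNAs, 22 were higher in EVs (10.6%), 62 were lower (29.8%) and 124 were neither. The 22 higher miRNAs took 48.3% of EV miRNA reads and 9.65% of cell miRNA reads. The 62 lower miRNAs took 17.3% and 51.2%. The median log2 ratio was -1.06, with 152 miRNAs below 0 and 56 above. Nearly all miRNAs entered through the deeper cell library, so the surplus of lower calls and the sign of the median depend on the minimum: with 50 reads required in both libraries 17 were higher and 17 lower, with a median of -0.20. In EVs 22 of the compared miRNAs had 0 reads, which allows up to 51.8 RPM. Conversely, 28 miRNAs were read only in EVs, none with more than 12 reads.

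**Figure D1:**
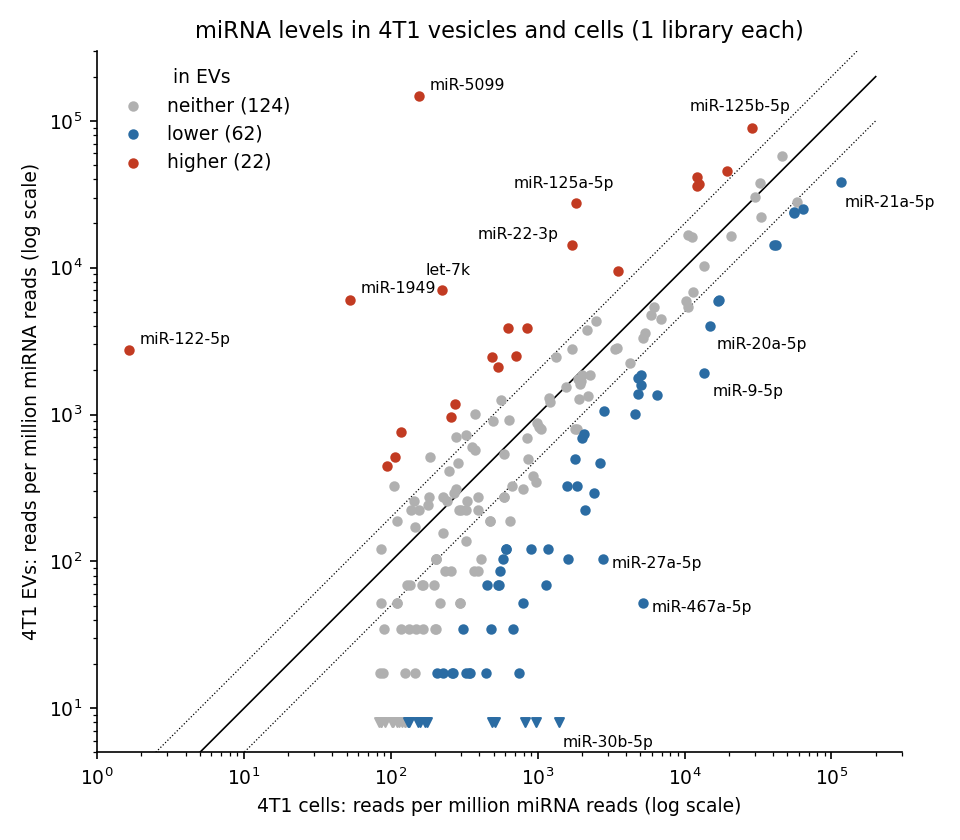
Level of each of the 208 compared miRNAs in 4T1 cells (x axis) and 4T1 EVs (y axis), in RPM on log scales, 1 library each. The solid line marks equal levels and the dotted lines 2-fold; triangles at the bottom are the 22 miRNAs with 0 reads in EVs. miR-5099 and miR-122-5p lie farthest above the lines and miR-467a-5p and miR-30b-5p farthest below.

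At the top of the EV library stood miR-5099, with 8545 reads in EVs and 94 in cells. It was followed by miR-125b-5p, a relative of the worm miRNA lin-4, with 5178 reads in EVs and 17289 in cells. MiR-125b-5p stood at 89334 RPM in EVs and 28663 RPM in cells, 3.12-fold higher (3.02 to 3.22). In cells the top place was held by miR-21a-5p, a miRNA that is abundant in many tumours, with 69634 reads and 115444 RPM. It had 2235 reads and 38560 RPM in EVs, where it ranked 6. Let-7a-5p, of the family that restrains growth genes in differentiated cells, was near the top of both, with 57589 RPM in EVs and 45996 RPM in cells.

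The largest ratio belonged to miR-122-5p, the main miRNA of liver, with 160 reads in EVs and 1 in cells. That rank rests on the 1 cell read: with 5 reads added in place of 0.5 its log2 ratio was 8.16 and that of miR-5099 was 9.81. The other markers of liver, blood and immune cells did not accompany it: 6 of the other 7 had 0 reads in EVs, and miR-451a of red cells had 2. Of the 7 muscle and brain markers, miR-206-3p of skeletal muscle was higher in EVs (56 reads against 154, 3.78-fold, 2.74 to 5.17) and miR-9-5p of neural tissue was lower (111 against 8193, 7.09-fold, 5.88 to 8.63). MiR-128-3p, another brain miRNA, had 41 reads against 167 and was neither. The summed level of those 7 was 3692 RPM in EVs and 14115 RPM in cells. Of 8 endothelial and mesenchymal markers only miR-126a-3p, of endothelium, was compared, with 13 reads against 83, and it was neither. MiR-143-3p, a mesenchymal marker, had 22 reads against 2, below the minimum of 50. Whether any of these reads came from other cells or from serum was not tested.

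Among the other miRNAs with the largest ratios, miR-125a-5p had more reads in the smaller library, with 1607 in EVs and 1102 in cells, 15.2-fold higher (14.0 to 16.4). MiR-22-3p, broadly expressed and studied in heart and tumours, had 827 in EVs and 1026 in cells, 8.39-fold higher (7.64 to 9.20). MiR-1949 had 351 against 32, let-7k 410 against 134 and miR-690 224 against 380. MiR-1198-5p had 44 against 71, miR-181a-5p 143 against 296 and miR-15a-5p 30 against 64. Of all 22 higher miRNAs, only miR-122-5p, miR-125a-5p and miR-1949 were called higher in each of 11 alternatives (read length, both strands, start, denominator, scaling or added reads). When only full-length reads were counted miR-125a-5p kept its call and the other two could not be compared. From 21 nt only 19 of the 22 could be compared, and a miRNA that could not be compared counted as not called. Of the 11 alternatives, adding 5 reads could change no call, since calls use the raw counts. A denominator without miR-5099 raises every ratio, so it could remove no higher call. Neither miR-5099 nor let-7k had a read of 21 nt or more in either library. For let-7k, annotated at 19 nt, this was fixed in advance, since reads past the annotated end could not align. The same limit may hold for miR-5099. MiR-15a-5p and miR-181a-5p turned to log2 -0.75 when reads of 21 nt or more alone were counted.

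At the other end, 17 of the 62 lower miRNAs were called lower in each of the 11 alternatives, and 12 of those with full-length reads also. With full-length reads 3 of the 17 lost the call and 2 could not be compared. Adding 5 reads could again change no call, and the genome-aligned denominator lowers every ratio, so it could remove no lower call. That denominator kept only 5 of the 22 higher calls, so the 17 lower and the 3 higher miRNAs kept are not a like comparison. The 17 included miR-30b-5p and miR-467a-5p, neither of them among the 12. MiR-30b-5p had 0 reads in EVs and 838 in cells and was at least 26.8-fold lower against the floor of 3 counts. MiR-467a-5p had 3 against 3162. MiR-31-3p (0 against 591), miR-18a-5p (0 against 497), miR-374b-5p (0 against 309) and miR-362-5p (0 against 295) were at least 18.9-, 15.9-, 9.90- and 9.45-fold lower against the floor of 3 counts. The 2-sided intervals behind their calls reach lower, to 15.3-fold for miR-31-3p, 12.9-fold for miR-18a-5p and 7.64-fold for miR-362-5p. MiR-30c-2-3p had 1 read against 447, and miR-27a-5p had 6 against 1686, 27.0-fold lower (12.4 to 73.7). MiR-335-3p (0 against 107) and miR-301a-5p (0 against 103) completed the 10 smallest ratios.

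Counted by group, members of 1 family often differed. The lists were chosen with earlier results known, so their counts describe these libraries; over all 208 miRNAs 10.6% were higher and 29.8% lower, with a median of -1.06, and shares near these say nothing particular of a list. Of the 11 let-7 members, 4 were higher, 1 was lower and the median was 0.32. From 21 nt 2 of 10 were higher and none was lower: let-7k could not be compared, and miR-98-5p, at log2 2.19 from 18 nt, stood at -0.40. Let-7b-5p (35903 RPM in EVs, 12227 in cells) and let-7c-5p (45720 and 19493 RPM) were higher. Let-7i-5p (28018 and 58304 RPM) was neither and let-7j (25241 and 63853 RPM) was lower. With genome-aligned reads as the denominator all log2 ratios fell by 2.55, which put let-7a-5p, let-7b-5p and let-7c-5p below 0.

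The polycistron miR-17-92 with its paralogs, known for promoting proliferation, had more lower calls than the 29.8% of all miRNAs. Most of its lower calls were lost once short reads of all miRNAs were left out. Of its 12 compared miRNAs 8 were lower, none was higher and the median was -1.85. From 21 nt 2 of the 12 were lower, with a median of -1.09, and with full-length reads 2 as well, with a median of -0.79. In these alternatives the short reads of every miRNA left the totals too. Of miRNA reads from 18 nt, 29.7% in EVs and 1.08% in cells were 18 nt long. The lost calls thus need not have rested on short reads of the list's own members. MiR-20a-5p had 4020 RPM in EVs and 14954 in cells, and miR-17-5p 1587 and 5008 RPM. MiR-25-3p (6815 and 11371 RPM) and miR-92a-3p (500.3 and 862 RPM) were neither. MiR-18a-5p was called lower in each of the 11 alternatives and with full-length reads. MiR-106b-5p was called in all but 1 of them: with all lengths and both strands its log2 ratio went from -3.88 to -0.18. The miR-30 family was split more widely: miR-30a-5p (939 reads against 6793) and miR-30d-5p (964 against 6403) were neither and above 0, whereas miR-30b-5p and miR-30c-5p (6 against 972) were lower, with 3 of 9 lower in all, near the share over all miRNAs.

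Members of clusters stood at different ratios. The first group below is 1 cluster, while the others pool clusters of different chromosomes. Reads of miR-24-3p (chromosomes 8 and 13) and miR-125b-5p (chromosomes 9 and 16) cannot be assigned to 1 of their copies. Their ratios therefore do not show a difference within 1 transcript. In the cluster miR-183 to miR-182, known from sensory organs, miR-183-5p was higher (2406 reads against 7304), miR-182-5p was neither (2188 against 19704) and miR-96-5p was lower (13 against 1259). Of the clusters of miR-23, miR-27 and miR-24, 2 of 7 compared members were higher, among them miR-24-3p (2140 against 7561), and 5 were lower, among them miR-27a-3p (1387 against 33591) and miR-23a-3p (108 against 3028). The other higher member, miR-24-2-5p, went from log2 1.82 to -0.47 from 20 nt, where 3 of 7 were lower. Among miR-125 with its cluster partners miR-99 and miR-100, 2 of 8 were higher and 4 lower. MiR-125a-5p and miR-125b-5p were the higher pair, and miR-100-5p (830 against 25121) and miR-99a-5p (821 against 24550) were lower. From 21 nt 1 of the 8 was higher and 2 were lower.

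The other groups held few members, and their counts, beside 10.6% higher and 29.8% lower over all miRNAs, only describe these libraries. In the miR-15/16 family 1 of 4 was higher (miR-15a-5p) and 2 were lower (miR-16-5p, 27 reads against 1609, and miR-322-5p, 1 against 136). Of the Sfmbt2 intron cluster, a rodent repeat-derived family, 1 of 13 was higher and 5 were lower, with a median of -2.23. These members are not all separate. MiR-669a-3p and miR-669o-3p, both lower at log2 -2.23, had the same counts (7 against 366), as did miR-669a-5p and miR-669p-5p (16 against 354). Of 3 arms of miR-221 and miR-222, which act on cell-cycle inhibitors, 2 were lower, both of miR-221. MiR-222-3p (24 reads against 150, log2 0.76) was neither. Of 7 oncogenic and inflammatory miRNAs 3 were lower, namely miR-21a-5p, miR-31-3p and miR-34a-5p. MiR-31-5p, miR-155-5p and miR-146a-5p were neither. Of the epithelial miR-200 family, 1 of 5 was lower (miR-429-3p, 5 against 333). All 3 members of the miR-29 family and both of the miR-26 family were neither. Of the miR-181 family 1 of 3 was higher, and of miR-148 and miR-152 1 of 2 (miR-148a-3p, 553 against 2107).

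**Figure D2:**
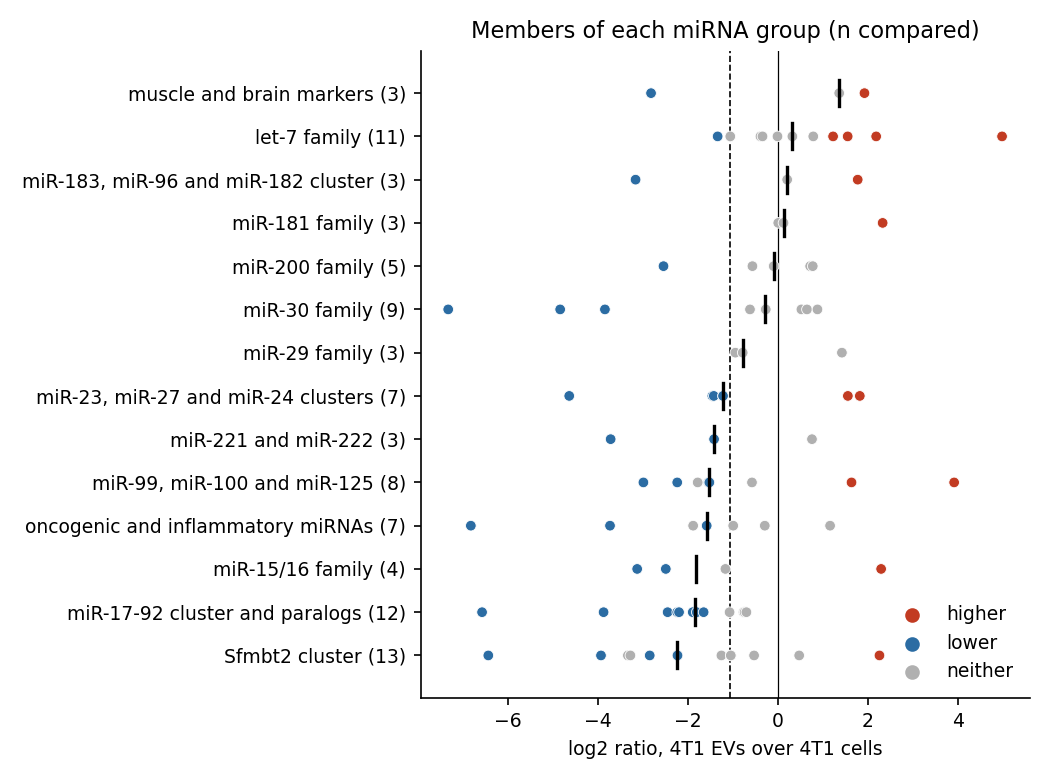
Log2 EV/cell ratio of each compared member (points) of the 14 lists with 3 or more compared members; black bars are list medians and the dashed line is the median of all 208 miRNAs. Points are coloured by call; the let-7 median lies at 0.32 and that of the miR-17-92 list at -1.85.

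Members with the same seed were also summed, which counts a shared read once for each member that lists it. Of 120 seed groups, 10 were higher (8.33%) and 43 lower (35.8%). The CCCUGAG seed of miR-125a-5p, miR-125b-5p and miR-351-5p was 3.81-fold higher in EVs (3.71 to 3.92), with 6803 reads against 18559. The ACCCGUA seed of miR-99a, miR-99b and miR-100 was 2.28-fold lower (2.20 to 2.37), with 2930 against 69496. The AAAGUGC seed of miR-17-5p and its relatives was 3.79-fold lower (3.46 to 4.16), with 468 against 18453. Because of the repeated reads these intervals are too narrow, so each seed was also compared by its most abundant member alone, an alternative added after seeing the data. Then 11 of 118 seeds were higher and 42 lower, of which 10 and 40 had the same call by their sums. The ratio was 3.12-fold higher for CCCUGAG, 2.91-fold lower for ACCCGUA and 3.72-fold lower for AAAGUGC. The seeds of miR-21a (AGCUUAU, 2.99-fold), miR-103 and miR-107 (GCAGCAU, 2.84-fold), miR-27 (UCACAGU, 2.33-fold) and let-7j (GAGGUAU, 2.53-fold) were also lower. The GAGGUAG seed of the 10 other let-7 members, at 13879 reads against 123202, gave a ratio of 1.17 and was neither, as was the UUGGCAA seed of miR-182-5p. By its most abundant member, let-7i-5p, the GAGGUAG ratio was 0.481, also neither. Let-7j can share reads with the other let-7 members although its seed differs.

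The reads themselves differed in length. In cells 60.0% of miRNA reads were 22 nt long and 1.08% were 18 nt, counted as alignments. In EVs 30.7% were 22 nt and 29.7% were 18 nt. MiR-5099 gave 33.9% and miR-125b-5p 23.04% of the 17203 EV alignments of 18 nt. Without those 2 miRNAs, 18 nt still made up 16.7% in EVs and 1.10% in cells. Starts did not differ in this way: 97.2% of EV reads and 98.7% of cell reads began at the first base.

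**Figure D3:**
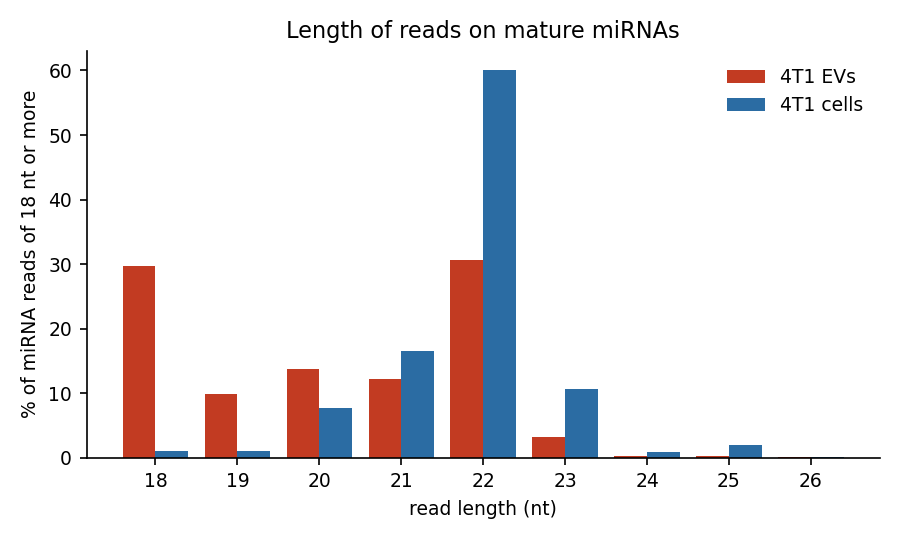
Share of miRNA alignments of 18 nt or more (y axis, %) by read length (x axis, nt) in 4T1 EVs and 4T1 cells, 1 library each. Cells have 1 peak at 22 nt, with 60.0%, and EVs have 2, with 30.7% at 22 nt and 29.7% at 18 nt.

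EV reads were thus short at their 3′ ends. Among miRNAs with a RefSeq sequence, 35.9% of EV reads (35.5 to 36.3) reached the annotated 3′ end, against 71.9% of cell reads (71.8 to 72.0). Reads 4 or more nt short were 25.9% of EV reads and 1.04% of cell reads. Reads that ran past the annotated end could not align, so longer forms are missing from both. In the 4TO7 libraries the full-length share was 59.3% in EVs and 77.9% in cells.

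The most common EV read of 10 miRNAs is shown in capitals within the annotated sequence, to show where EV reads ended; 6 whose most common EV read stopped short come first, then 4 whose most common EV read was the whole sequence.

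miR-125b-5p: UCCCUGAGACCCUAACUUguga
miR-182-5p: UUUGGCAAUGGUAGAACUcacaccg
miR-181a-5p: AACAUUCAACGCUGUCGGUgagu
miR-98-5p: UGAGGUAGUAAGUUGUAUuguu
miR-99b-5p: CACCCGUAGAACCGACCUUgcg
miR-103-3p: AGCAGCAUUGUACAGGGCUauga
let-7a-5p: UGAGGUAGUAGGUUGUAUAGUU
miR-20a-5p: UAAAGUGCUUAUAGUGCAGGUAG
miR-30a-5p: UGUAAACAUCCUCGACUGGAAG
miR-26a-5p: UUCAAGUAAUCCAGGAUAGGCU

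The extent of this differed between miRNAs. Of 67 miRNAs with 50 or more reads in both libraries and a RefSeq sequence, 47 had a smaller full-length share in EVs with intervals that did not meet, 4 a larger one, and 16 overlapped. The median share was 33.1% in EVs and 75.6% in cells. Among the 16, miR-181b-5p and miR-7b-5p had no full-length read in either library, and let-7j 0.41% in EVs and 0.31% in cells. For these the share could not show shortening. Their EV reads ended on average 3.64, 2.27 and 3.24 nt short, against 1.67, 1.48 and 1.98 nt in cells. MiR-125b-5p reached its 3′ end in 13.0% of EV reads and 80.9% of cell reads. MiR-182-5p did so in 4.75% and 58.9%, miR-98-5p, of the let-7 family, in 2.68% and 69.9%, and miR-181a-5p in 1.40% and 64.2%. For miR-29b-3p, whose targets include collagens, no EV read of 58 was full length (up to 6.16%), against 75.2% in cells.

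A family could be short throughout. All 6 compared arms of miR-125, miR-99 and miR-100 had a smaller full-length share in EVs, between 3.48% and 16.7%, as did all 5 arms of miR-23, miR-27 and miR-24 and all 3 of the miR-29 family. In the let-7 family 10 of 11 did, with a median of 50.5% in EVs and 86.4% in cells. The remaining member, let-7j, was hardly ever full length in either library. Beside these counts, 47 of all 67 miRNAs had a smaller share in EVs. Near-identical members can share reads, as with miR-99a-5p and miR-100-5p (821 and 830 EV reads), so members of a family are not separate counts.

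Other miRNAs were whole in EVs. MiR-20a-5p was full length in 97.9% of EV reads (95.1 to 99.3) and 98.3% of cell reads. MiR-17-5p was so in 97.8% and 96.3%, miR-106a-5p in 98.8% and 96.4%, and miR-93-5p in 93.1% and 92.5%. These 4 share the AAAGUGC seed, and all were called lower in EVs when reads from 18 nt were counted. None of the 4 was called from 21 nt, where their log2 ratios were -0.94, -0.70, -0.85 and -1.25 in the order given, or with full-length reads, where they were -0.65, -0.38, -0.52 and -0.94. Few of their own reads were left out there, but the library totals changed in both alternatives. In the 4TO7 EV library with 130, 54, 50 and 32 reads, their full-length shares were 97.7%, 98.1%, 98.0% and 93.8% in the same order. MiR-26a-5p (93.8% in EVs, 78.4% in cells) and miR-30a-5p (84.3% and 80.2%) had larger shares in EVs, and miR-30e-5p (82.3% and 79.4%) and the inflammation-linked miR-146a-5p (80.8% and 81.2%) overlapped.

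**Figure D4:**
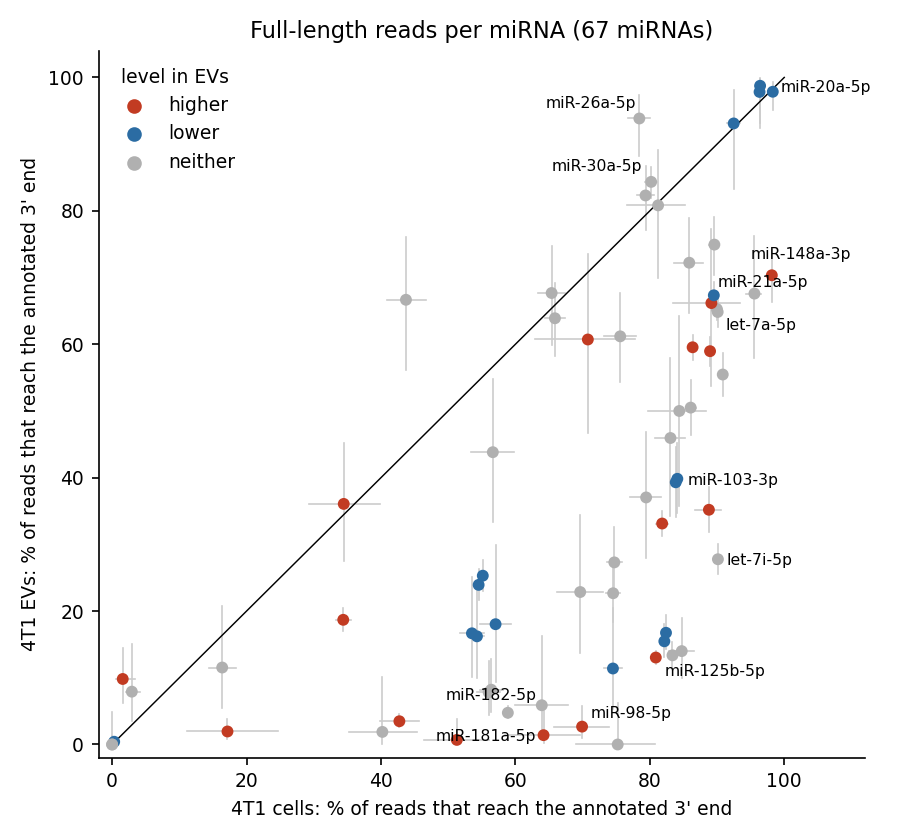
Share of reads that reach the annotated 3′ end in 4T1 cells (x axis, %) and 4T1 EVs (y axis, %) for 67 miRNAs, 1 library each; grey bars are exact 95% intervals (counting error only) and colours give the call of the level. Most points lie below the line of equal shares, with miR-125b-5p at 13.0% in EVs and miR-20a-5p at 97.9%.

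Full-length share and level were measured on the same reads but did not move closely together. Among the 67 miRNAs the Spearman correlation of the EV full-length share with the log2 ratio was -0.21, a description across miRNAs that share a library. The median EV share was 25.9% in the 16 higher miRNAs, 24.6% in the 16 lower ones and 43.8% in the 35 others. In 4TO7, which played no part in the choice, 49 of these miRNAs had 50 or more reads in both libraries. Of them, 40 had a smaller full-length share in EVs by non-overlapping intervals in 4TO7, 38 in 4T1 and 38 in both. Their median EV share was 53.8% in 4TO7 and 33.1% in 4T1.

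Counting only full-length reads kept 11 of the 15 higher miRNAs that could still be compared and 23 of the 53 lower ones. MiR-125b-5p went from a log2 ratio of 1.64 to 0.26 and was neither, miR-181a-5p went to -1.62, miR-98-5p to -1.16 and miR-24-2-5p to -2.57. MiR-22-3p (2.98), miR-148a-3p (2.22), let-7b-5p (2.21) and miR-183-5p (1.72) stayed higher. Below 18 nt the EV library had a further peak at 16 nt. Let-7a-5p had 7476 reads of its first 16 bases in EVs, against 2162 of 22 nt from the same start. In cells the numbers were 157 and 24833. Those 16 bases occur in several let-7 members, which share these reads.

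Arm use could be compared for few hairpins, since minor arms are rare and EVs were the shallower library. Of 47 hairpins with at least 50 reads in each library, the odds of 5p against 3p were higher in EVs for 6 (12.8%) and lower for 5 (10.6%) beyond 2-fold. The main arm was taken from 4TO7 cells, which the comparison does not use, for 45 hairpins. The share of the minor arm was smaller in EVs with intervals apart in 14, larger in 3, and overlapped in 28. Among the 3 was miR-140, whose 3p arm was minor in 4TO7 cells but took 60.4% in 4T1 cells and 86.7% in 4T1 EVs. The minor arm had 0 reads in EVs in 21 hairpins, but in 15 of these the upper limit lay above the share in cells, so a loss was not detectable at this depth.

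The examples run in both orientations. MiR-31 had 164 reads of 5p and 0 of 3p in EVs, against 2092 and 591 in cells, so its 3p share was 0% (up to 2.22%) in EVs and 22.03% in cells. MiR-125a had 1607 and 2 against 1102 and 89, and let-7d had 250 and 2 against 1508 and 289. Let-7b 3p went from 62 reads in cells to 0 beside 2081 reads of 5p. Where 3p is the main arm, miR-22 had 0 reads of 5p beside 827 of 3p in EVs, against 33 and 1026, and miR-148a had 0 and 553 against 72 and 2107. MiR-106b had 4 and 78 against 687 and 1325, and miR-27a had 6 and 1387 against 1686 and 33591. MiR-9 went the other way, with 111 reads of 5p and 5 of 3p in EVs against 8193 and 31. Of the called hairpins the minor arm was lower in 9 and higher in 2, the second being miR-423, whose 5p arm took 75.4% in EVs and 46.4% in cells.

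Among the called miRNAs, 13 of the higher carried a 5p name and 4 a 3p name, against 28 and 31 of the lower. Of the miRNAs called neither, 60 carried a 5p name and 57 a 3p name, so the lower miRNAs were close to these. Median GC content was 45.5% in the higher, 47.6% in the lower and 45.5% in the other miRNAs. The motif GGAG, described by others as a signal for loading miRNAs into vesicles, was searched in the mature strand only. It stood in 1 of 18 higher miRNAs with a RefSeq sequence (let-7k), in 4 of 54 lower, in 8 of 92 others and in 14.2% of 1679 RefSeq mature miRNAs. CCCU, which lies in the miR-125 seed, was found in 2 of 18, 5 of 54 and 5 of 92, and in 11.4% of all.

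Outside miRNAs, the genome clusters that the authors listed were 684 in EVs and 1877 in cells, each with at least 1300 alignments, on the mm9 build. Merged by overlap, they gave 242 regions listed in both libraries, 419 in EVs only and 1608 in cells only. Per genome-aligned read, 74 of the 242 were higher in EVs (30.6%) and 99 lower (40.9%), with a median log2 ratio of -0.61. A read could be placed at up to 6 positions, so the same reads can count for several copies of a repeated RNA, and summing shares over copies would count them again.

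The regions with the largest EV/cell ratios carried the label U2 snRNA, the spliceosome RNA that pairs with the intron branch site. The copy at chr11:101466254-101466329 had 2285734 alignments in EVs, or 29.97% of genome-aligned reads, against 1462 in cells. Its log2 ratio was 11.44, or 9.85 per covered nt, since it spanned 75 nt in EVs and 25 nt in cells. The 3 further copies with EV and cell counts on the same chromosome gave log2 ratios between 11.43 and 11.44. The EV table sets beside 1 of them the interval 101466164 to 101466354, of 191 nt, within which the EV alignments of the first copy span bases 91 to 166. The U2 gene whose identifier the EV table gives for its largest cluster, at chr8:53422336-53422386, is Gm23444. GENCODE M21 lists it as an snRNA of 191 nt on the plus strand at chr11:83271498-83271688 of GRCm38. It is printed, 5′ to 3′ and with no capitals, as an example of U2, not as the exact copy that was read.

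Gm23444: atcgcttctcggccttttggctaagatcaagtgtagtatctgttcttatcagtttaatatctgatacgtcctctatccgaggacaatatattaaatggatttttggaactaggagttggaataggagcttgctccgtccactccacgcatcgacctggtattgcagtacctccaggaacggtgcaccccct

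The next regions were short stretches with the same ratio, among them chr7:86688715-86688745 (labelled as a B1 repeat, 395879 alignments against 4168, log2 7.39) and regions labelled with the genes Rab23, Rdx and Brms1l (log2 between 7.30 and 7.39). Each of these covered 25 nt in both libraries. The labels are the authors' and were not checked.

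The 3 largest clusters in cells were labelled Erf1, small-subunit rRNA and ERVL, a retrovirus-like repeat; clusters labelled with rRNA followed, and mir-21 ranked 7. The ERVL-labelled region at chr10:82418131-82418201 had 652222 alignments in cells and 5749 in EVs, or 4.83% and 0.0754%. The mir-21 region at chr11:86397618-86397668 had 600815 alignments in cells and 3382 in EVs, or 4.45% and 0.0443% of genome-aligned reads. The log2 ratio of this region was -6.65. That of miR-21a-5p, from reads of 18 nt or more, was -4.14 on the same denominator and -1.58 in RPM; what makes up the rest of the gap was not tested. The miR-21a-5p call in RPM was lost from 20 nt (-1.02) and with full-length reads (-0.74). At chr17:39984132-39985193, labelled Erf1 in cells, cells had 15.0% and EVs 1.91%. The region labelled small-subunit rRNA at chr6:3151479-3151576 had 6.28% in cells and 0.237% in EVs. The 6 clusters on the mitochondrial genome were listed in cells only.

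For many of these regions the 2 libraries read opposite strands. The main strand differed in 44 of the 242 regions: in 30 of the 99 lower, in 3 of the 74 higher and in 11 of the 69 others. Of the 50 largest regions of the cell library, 17 were among them. At chr17:39984132-39985193 cells had 2026516 alignments on the forward and 55 on the reverse strand, whereas EVs had 45487 and 100226. The rRNA-labelled region at chr6:3151479-3151576 had 847996 and 6 in cells and 6635 and 11471 in EVs. At chr9:123371108-123371308, labelled large-subunit rRNA, cells had 602098 and 181 and EVs 88 and 4618. At chr13:54285363-54285438 the order was reversed, with 5 and 366341 in cells and 4602 and 15 in EVs. Across all clusters, 89.0% of those in EVs and 98.2% of those in cells had at most 1% of alignments on their minor strand. Copies in opposite orientation that share reads, and the source of the opposite-strand reads, were not tested.

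**Figure D5:**
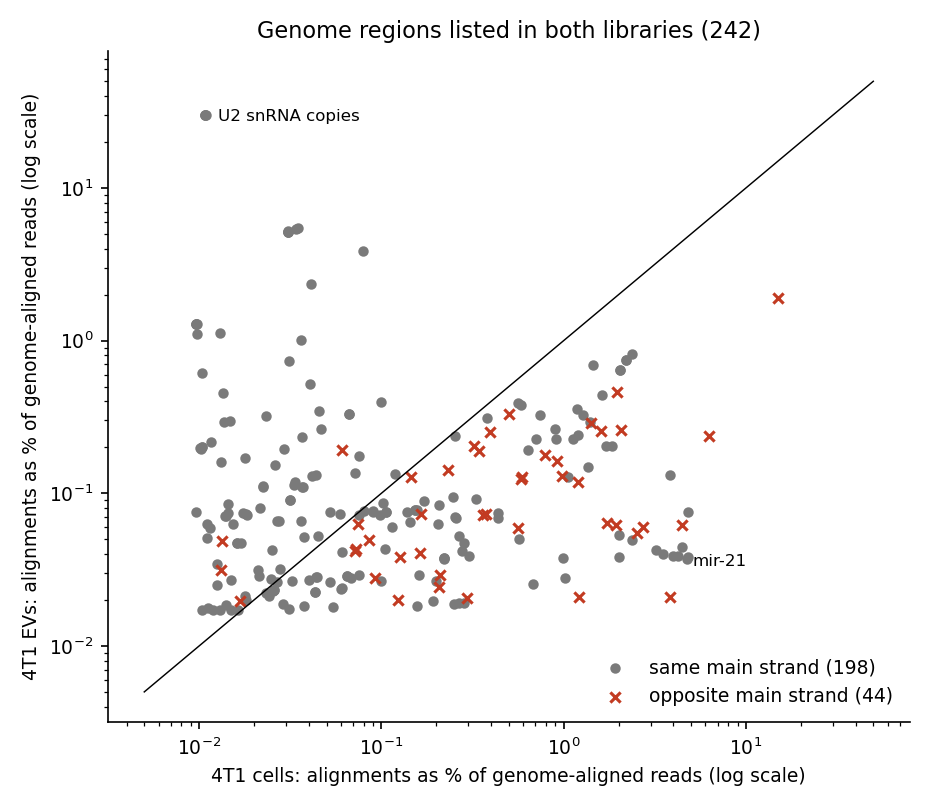
Alignments in each of the 242 genome regions listed in both libraries, as % of genome-aligned reads in 4T1 cells (x axis) and 4T1 EVs (y axis), on log scales, 1 library each. Crosses mark the 44 regions whose main strand differs between the libraries; 30 of them were called lower in EVs, and the U2 regions stand at 29.97% in EVs.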

How the data were processed

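Small RNA was counted in 1 library of 4T1 EVs and 1 of 4T1 cells. Per the submitters' processing notes, cutadapt, Bowtie and bedtools were used with the mm9 build; versions are not given in the sources used here. Deposited alignment logs of the authors give Bowtie runs with 1 mismatch, reporting up to 6 genome positions and up to 10 mature miRNAs per read. The deposited miRNA and cluster tables hold raw counts of alignments. An RPM column of the deposited EV miRNA table, per the file headers a scaled share of all reads, was not used for results. Columns of strand, start and length were used as the authors deposited them, in other units.

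Sense counts of 18 nt or more were summed per miRNA (50 or more in either library), per arm, per RefSeq seed and by distance to the RefSeq 3′ end; 164 of the 208 miRNAs had a RefSeq sequence. RPM here is per 1000000 such counts. Log2 ratios had 0.5 reads added. Ratios carry exact conditional binomial (Clopper-Pearson) 95% intervals, arms exact conditional odds-ratio intervals, shares Clopper-Pearson intervals. Against 0 reads, the fold is a bound from a floor of 3 counts in that library, which is 51.8 RPM in EVs and 4.97 RPM in cells. The named miRNAs are the 10 largest and 10 smallest called ratios, the 10 most abundant per library, up to 4 per list with most reads, 8 hairpins, 8 seeds and 10 clusters per library; others named from counts or for their 3′ ends were chosen after their values were seen. Members and lists were chosen with earlier results of these data known. Nothing states that the cultures were separate. Calls were checked on simulated counts that held counting error alone. Variation between libraries and reads shared within families were not simulated, so the check does not cover them. Python 3.11.15, scipy 1.17.1 and, for TMM, edgeR 4.0.16 were used, the last only for a scaling factor.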

Additional observations from a re-analysis of the deposited data

Results flagged for a closer look

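Alignments of 18 nt or more to the antisense strand of mature miRNAs, which the comparisons leave out, were 3.02% of both strands in 4T1 EVs (1807 of 59769, exact 95% interval 2.89 to 3.16) and 0.692% in 4T1 cells (4206 of 607392). The share in EVs thus lay above that in cells. Of these reads, 88.0% in EVs and 92.5% in cells were listed under miR-3074-5p, whose locus lies opposite that of miR-24, and miR-24-3p had 2140 sense reads in EVs and 7561 in cells. In 4TO7 the share was 1.08% in EVs and 0.764% in cells.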

How the results depend on the processing

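Calls of levels depended on read length and denominator. The numbers higher and lower, 22 and 62, became 5 and 178 with genome-aligned reads as the denominator (median log2 ratio -3.62; higher among called from 26.2% to 2.73%), 133 and 580 with all lengths and both strands, 42 and 121 for intervals that exclude 1, and 9 and 17 beyond 4-fold. The number lower became 111 from 16 nt (median -1.79), 34 from 21 nt, 17 with 50 reads in both libraries (17 higher, median -0.20), 30 after thinning (median -0.48) and, added after seeing the data, 29 with full-length reads. The number higher became 35 with a minimum of 10 reads and 39 with none, where the median was 0.57; with 5 reads added the median was -0.39. The share of higher among called was 38.2% from 20 nt, 39.3% from 21 nt, 36.1% with a minimum of 10 reads, 38.6% with none, 37.5% after thinning, 40.8% with full-length reads and 16.5% from 16 nt. TMM moved the median by 0.10 and median-of-ratios scaling by 0.14. Without miR-5099 in the denominator, an alternative added after seeing the data, 27 were higher and 51 lower. Seed groups lower went to 23 from 21 nt. Counted from 16 nt, 18 nt reads were 14.2% in EVs, and reads from base 1 were 97.8% in EVs and 98.2% in cells.

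Of the 84 calls, 14 changed sign with genome-aligned reads, 1 from 16 nt, 4 from 20 nt, 4 from 21 nt, 3 with all lengths and both strands, and 4 of the 68 still compared with full-length reads. Called or named miRNAs whose log2 ratios changed sign with genome-aligned reads were -2.23 for let-7a-5p, -1.001 for let-7b-5p, -1.32 for let-7c-5p, -0.91 for miR-125b-5p, -1.10 for miR-148a-3p, -0.26 for miR-15a-5p, -0.22 for miR-181a-5p, -2.43 for miR-181b-5p, -2.54 for miR-181d-5p, -2.35 for miR-182-5p, -0.78 for miR-183-5p, -1.83 for miR-200b-3p, -0.63 for miR-206-3p, -1.79 for miR-222-3p, -0.996 for miR-24-3p, -2.03 for miR-30a-5p, -1.91 for miR-30d-5p, -0.37 for miR-98-5p, -0.73 for miR-24-2-5p, -0.46 for miR-1839-5p, -0.59 for miR-3535 and -0.29 for miR-669c-5p. With all lengths and both strands they were let-7f-5p (2.18), let-7i-5p (1.21), miR-15a-5p (-5.98), miR-31-5p (2.59), miR-181c-3p (0.59) and miR-532-3p (2.15, called higher in place of lower), and from 16 nt let-7f-5p (1.29) and miR-3535 (-0.58). From 20 nt they were miR-15a-5p (-1.03), miR-181a-5p (-0.27), miR-98-5p (-0.65) and miR-24-2-5p (-0.47), from 21 nt miR-15a-5p (-0.75), miR-181a-5p (-0.75), miR-29b-3p (-4.41), miR-98-5p (-0.40) and miR-24-2-5p (-0.17), and with full-length reads let-7j (0.43), miR-181a-5p (-1.62), miR-182-5p (-2.17), miR-98-5p (-1.16) and miR-24-2-5p (-2.57). The cause was not tested beyond the construction of each alternative. Counts of hairpins and genome regions stayed within 1.5 times. No paired analysis was possible because each group had 1 library and the labels carry no replicate numbers. The EV total of 57962 limits what a count of 0 can show to 51.8 RPM.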
